A study of Homo sapiens with 66 samples.

Results

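ECRs depleted from the cytosol are stretches of RNA that carry clusters of A-to-I editing sites and gave far fewer reads in the cytosolic than in the nuclear fraction of hnRNPC-targeted THP-1. An editing cluster region (ECR) is a genomic window that runs from the outermost sites of neighbouring editing clusters to 1000 bp beyond them on either side. An ECR was taken as depleted when its mean level in the nuclear/mitochondrial fraction of hnRNPC-targeted cells was at least 1 CPM (counts scaled in the usual way to each library's total over genes) and its mean level in the cytosolic fraction of the same cells was at most 0.5 of that. This held for 729 of 2794 ECRs. A further 1921 ECRs reached the nuclear minimum without being depleted and are called the other ECRs here, and 144 stayed under the minimum. Members were thus chosen by their measured levels in these 4 libraries, which are described below without a test.

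THP-1 is a human monocytic leukaemia line. In the second RNA-seq study, a Cas9-transgenic THP-1 clone obtained by limiting dilution was nucleofected with guide RNAs against HNRNPC, ADAR or both, with a nontarget guide in place of each missing one, and harvested on day 4. The groups are called hnRNPC, ADAR, ADAR+hnRNPC and, with nontarget guides alone, CTRL. Each of these 4 groups gave total RNA and digitonin-soluble (cytosolic) RNA, and only hnRNPC gave the digitonin-insoluble RNA of nuclei and mitochondria, with 2 replicates throughout (18 libraries). In the first study a STING-deficient Cas9 clone, which lacks an adaptor of cytosolic DNA sensing, was treated alike with other guides. Total RNA was harvested on day 3, 4 or 5, with 3 replicates a group (48 libraries). The groups included nontarget cells given IFN-α on day 3 and harvested on day 4. They also included cells given a GFP guide with a nontarget guide, harvested on day 3, 4 or 5. The GFP libraries entered the fits but are not compared here. Each study rests on 1 clone and on pools of nucleofected cells, so a change in some cells and a weaker change in all of them, or fewer cells of a kind and less RNA per cell, cannot be told apart in these bulk samples.

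ADAR converts adenosine to inosine in double-stranded RNA, and inosine is read as guanosine in sequencing. Most such duplexes in human RNA form where a pair of Alu elements, short repeats common in introns, lie in opposite orientation in the same transcript. hnRNPC binds uridine tracts in nuclear RNA, including those of antisense Alu elements, and keeps them from being used as exons. Introns are normally removed and degraded in the nucleus, and inverted repeats in 3′ UTRs have been linked to nuclear retention.

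Depth, purity and the libraries that stood apart bear on every comparison. Reads counted to genes ranged from 49666958 to 73873756 per library in the second study and from 95107690 to 152829008 in the first. Against total RNA, the cytosol was lower in 3 of 3 nuclear RNAs (median log2 fold change -1.502), 8 of 8 mitochondrially encoded RNAs (median -5.35) and 1 of 6 cytosolic mRNAs (median 0.40). Of 8 monocytic markers 6 were tested, and 3 of them (LYZ, CSF1R and CD4) were lower in the cytosol (median of the 6 -0.93). In total RNA LYZ was at 101 to 182 CPM, SPI1 at 73.5 to 122 CPM and CD33 at 54.2 to 69.1 CPM, while CD14 was at 0.822 to 2.58 CPM and CD68 at 0 to 0.149 CPM. The 8 markers of T, B, epithelial and erythroid cells summed to 2.55 to 5.13 CPM. CTRL total replicate 2 stood apart from replicate 1, with 2941 against 1074 CPM of the nuclear RNA MALAT1 and 168 against 34.7 CPM of MT-ND1. Counts refitted without it are given beside the results below.

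In the libraries of the rule, the members' nuclear level ran from 1.00 to 2295 CPM with a median of 6.15 CPM, and the ratio of cytosolic to nuclear level from 0.0226 to 0.499 with a median of 0.328. The other ECRs had a median ratio of 1.00. Just inside the limit stood an ECR in HERPUD1 (ratio 0.499), 1 at chr5:42964242-42966364 (0.498) and 1 in SOGA1 (0.498), and just outside it ECRs in LINC02977 (0.50003), ANKRD18A (0.501) and DENND3 (0.501). At the nuclear minimum, SLC22A18 (1.00 CPM), chr1:247288803-247290885 (1.03 CPM) and SPC24 (1.06 CPM) were the lowest inside, and chr17:44420460-44422563 (0.935 CPM), ANKRD36 (0.935 CPM) and ENSG00000289053 (0.913 CPM) the highest outside. Membership depended on the replicate, since replicate 2 alone gave 663 members, 621 of them among the 729, and replicate 1 alone gave 819, 710 of them among the 729.

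The members were mostly intronic. Editing sites lay in introns in 547 members (75%), against 1033 (53.8%) of the other ECRs, and in 3′ UTRs in 51 (7%), against 471 (24.5%). Intergenic members numbered 113 (15.5%), a share near that of the other ECRs (16.4%), and 12 lay in other exons. Seen from the place, 34.6% of intronic, 26.3% of intergenic and 9.77% of 3′ UTR ECRs at the nuclear minimum were depleted. The window reached into an annotated exon on either strand in 317 members and into none in 412, whereas 1485 of the other ECRs held exonic bases and 436 did not. Where a window held exonic bases, they made up a median of 13.6% of it, so reads of the mature mRNA enter the counts of these 317 members.

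In sequence the members resembled the other ECRs. Their windows had a median length of 2147 bp (2011 to 10824), against 2224 bp, and a median of 15 editing sites, against 14. An inverted repeat of at least 200 aligned bases was found within the window in 503 members (69.0%) and 1335 of the other ECRs (69.5%), with median lengths of 305 and 302 bases and median identities of 77.5% and 78.0%. A run of 9 T on the transcript strand, the kind of tract that hnRNPC binds, was present in 510 members (70.0%) and 1395 of the others (72.6%), and a run of 9 A in 64.6% and 69.1%. The bases next to the sites were those that ADAR is known to favour: among 14370 sites of the members, 4.99% followed a G, against 22.2% of all adenosines in the same windows, and 43.8% preceded one, against 27.7%. In the other ECRs these shares were 4.84% and 43.3%.

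The members lay in 527 host genes, 444 of which held 1 member and 10 of which held 4 or more. Protein-coding genes hosted 561 members and lncRNA genes 80, and 80 had no host on the strand of their sites. Of the hosts, 137 also held an ECR that was not depleted. SPG7, which encodes a mitochondrial protease subunit, held the most, with 8 members between chr16:89557256 and chr16:89613748 and no other ECR. Nuclear levels of these 8 ran from 3.11 to 22.2 CPM and ratios from 0.211 to 0.431. DLEU2, a host lncRNA of microRNAs, and RLF, a zinc finger gene, held 5 each, and CAP1, DOCK8, GABPB1-AS1, RAB30-DT, ST3GAL3, ZMPSTE24 and ENSG00000277693 held 4 each.

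Some members lay near each other along chromosomes, and 293 of them had another member within 50 kb of sequence. This was not counted for the other ECRs, so whether members lie closer together than ECRs in general was not tested. With gaps of at most 100000 bp, the longest run joined 18 members over chr1:40424409-40753878, in MFSD2A, CAP1, PPT1, RLF and ZMPSTE24, with 5 other ECRs in between. A run of 8 at chr19:11894922-12058752 lay in and between ZNF439, ZNF440 and ZNF700, and 1 of 6 at chr5:179053393-179235925 in CANX, HNRNPH1 and SQSTM1. Members of 1 run can come from a single transcript and are not independent measurements.

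The libraries that the rule did not use were examined for the same depletion. In CTRL, ADAR and ADAR+hnRNPC cells together, 335 of the 589 members that passed the filter on low counts were lower in the cytosol than in total RNA by 2 times or more with adjusted p no higher than 0.05 (edgeR quasi-likelihood, Benjamini-Hochberg over all 2441 ECRs tested), and 0 were higher. Over all ECRs tested, 14.1% were lower and 0.0819% higher. The median log2 fold change of the members was -1.12, with a range from -3.51 to -0.09, against -0.06 for all ECRs, and no tested member lay above 0 in this fit over the 3 groups. Of 1845 other ECRs tested, 10 were lower and 2 higher. Within CTRL the number was 380 (16.4% of all ECRs), within ADAR 233 (9.79%) and within ADAR+hnRNPC 367 (17.5%), with 0 members higher in any of them (0.164%, 1.07% and 0.041% of all ECRs), and leaving out any 1 library from the fit over the 3 groups gave 305, without CTRL total replicate 2, to 363. The count within CTRL was not refitted without that library. Log2 fold changes above 0 were found for 3 members within CTRL, 16 within ADAR and 9 within ADAR+hnRNPC.

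The members were also split by exonic bases. Of those without any, 200 of 293 tested were lower, with a median log2 fold change of -1.24. Their host genes' exon counts had a median of 0.09 over the 324 whose host was tested. In 231 of the 242 with both tested, the ECR lay below its host. Of those with exonic bases, 135 of 296 were lower, with a median of -0.96, and 168 of 255 lay below their host. The host median of this group was -0.72, over 268. Among other ECRs without exonic bases, 8 of 381 were lower, with a median of -0.15. They too lay mostly below their host, in 195 of 271. The median difference from the host was -0.33 there, against -1.18 in the members without exonic bases. Intronic members (262 of 444 lower, median -1.14) and intergenic members (44 of 80, -1.11) were alike, while 3′ UTR members had a median of -0.83 (18 of 50). Members with an inverted repeat had a median of -1.05 (218 of 406 lower) and those without one -1.19 (117 of 183).

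**Figure D1:**
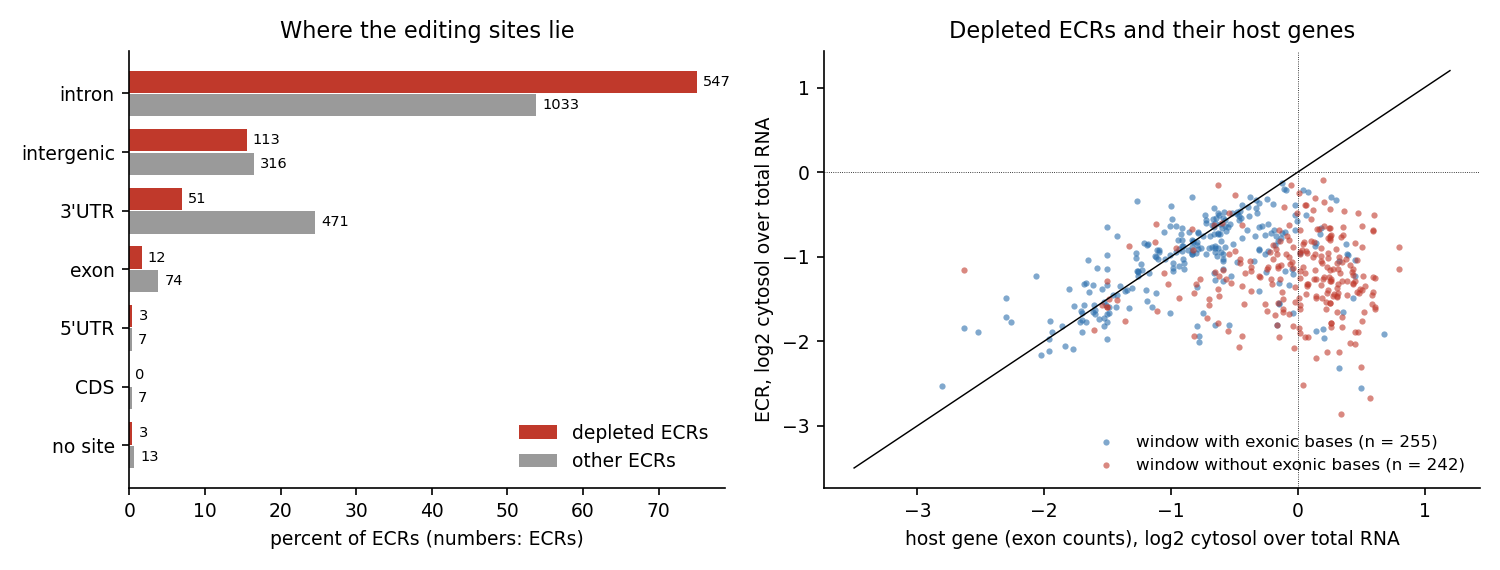
Left, percent of depleted and of other ECRs by the place of their editing sites, with the number of ECRs beside each bar: introns hold 547 depleted ECRs and 3′ UTRs 51. Right, log2 fold change of cytosol over total RNA of each depleted ECR (y) against that of its host gene's exons (x), with a line at equality: windows without exonic bases lie below the line in 231 of 242 cases, while those with exonic bases follow it more closely.

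Among the host genes of the members, 85 of 477 tested were themselves lower in the cytosol and 0 were higher, against 7.84% and 0.132% of 13618 genes, with a median of -0.23 against 0.14. Transcripts of secreted and membrane proteins are translated at the endoplasmic reticulum. Of 8 chaperone and folding enzyme genes of that compartment, listed after values were seen, 7 were lower, with a median of -1.74. That list summed to 1356 to 1428 CPM in the CTRL cytosol and 6591 to 6621 CPM in CTRL total RNA, and its genes CANX and P4HB host 5 members; its part in the depletion of members was not tested. Of 20 genes for Alu RNA binding, editing and nuclear retention, 0 were lower or higher (median 0.17), and of 9 double-stranded RNA sensor genes 7 were tested and none was lower or higher (median 0.24).

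CPM is not divided by window length, so the order of members by CPM is not one of copies. Of the 8 members highest in nuclear CPM, 7 held exonic bases of highly expressed genes. PPT1 encodes a lysosomal thioesterase, and its window chr1:40539086-40541921 holds 886 exonic bp. It gave 1795 and 1758 CPM in CTRL total RNA, 683 and 681 CPM in the CTRL cytosol, 922 and 947 CPM in the ADAR cytosol and 708 and 795 CPM in the ADAR+hnRNPC cytosol. All cytosolic values lay below all total values, but the fitted difference over the 3 groups, -0.91 ± 0.08 (SE) on the log2 scale, stayed under the fold required for a call. Within CTRL alone it was called, at -1.28 ± 0.14 (adjusted p = 3.5e-06, edgeR), against -0.75 in ADAR and -0.70 in ADAR+hnRNPC. The host gene's own difference was -0.93.

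In SRGN, which encodes the proteoglycan of secretory granules, the window chr10:70846100-70848192 gave 593 and 428 CPM in CTRL, 492 and 527 CPM in ADAR and 353 and 295 CPM in ADAR+hnRNPC total RNA. In the cytosol it gave 102 and 98.5 CPM, 166 and 170 CPM, and 123 and 127 CPM. The fractions did not overlap, with a fall by 1.68 ± 0.10 on the log2 scale (adjusted p = 2.4e-09, edgeR). Similar falls were measured for P4HB, a protein disulfide isomerase gene (chr17:79804692-79809186, by 1.66 ± 0.06), for ELANE, which encodes neutrophil elastase (chr19:853256-855993, by 1.67 ± 0.07), and for a CANX window at chr5:179136875-179143494 (by 1.14 ± 0.07), CANX encoding the chaperone calnexin. The exon counts of these host genes were lower in the cytosol too. They differed by -1.51 for SRGN, -1.61 for P4HB, -1.60 for ELANE and -0.98 for CANX.

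SPN encodes the leukocyte surface sialoglycoprotein CD43, and its window chr16:29675400-29677651 lies wholly in the 3′ UTR. In total RNA it gave 271 and 269 CPM in CTRL, 228 and 242 CPM in ADAR and 167 and 189 CPM in ADAR+hnRNPC. The cytosol held 31.2 and 45.5, 50.7 and 56.5, and 52.6 and 56.5 CPM, far below every total value, and the fall of 2.12 ± 0.08 on the log2 scale (adjusted p = 3.3e-11, edgeR) was among the larger ones. Its ratio in the libraries of the rule was 0.0927, and its best-scoring inverted repeat spanned 70 aligned bases. The exon counts of SPN itself differed by -1.96 between cytosol and total RNA.

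The lowest ratio of all, 0.0226, belonged to chr8:43091768-43098489, an intergenic window without a host gene on the strand of its sites, with 191 editing sites and an inverted repeat of 2527 aligned bases. It gave 99.1 and 112 CPM in CTRL, 109 and 62.5 CPM in ADAR and 161 and 191 CPM in ADAR+hnRNPC total RNA. The cytosol gave 6.71 and 16.2, 6.43 and 9.30, and 8.17 and 11.5 CPM, and the fall of 3.51 ± 0.19 (log2, adjusted p = 6.4e-10) was the largest among the tested members. No fraction overlapped the other.

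The next lowest ratios, among members with a nuclear level of at least 5 CPM, belonged to windows at lower levels. In HELLS, which encodes a chromatin remodelling helicase, the intronic window chr10:96324762-96328585 gave 3.14 and 6.18 CPM in CTRL, 2.47 and 1.46 in ADAR and 4.60 and 4.93 in ADAR+hnRNPC total RNA, and 0.340 and 0.784, 0.240 and 0.476, and 0.524 and 0.386 CPM in the cytosol. The fall was 2.87 ± 0.24 on the log2 scale. Windows in QPCTL (a Golgi glutaminyl cyclase, by 1.82 ± 0.15), MBNL1 (a splicing regulator, by 1.89 ± 0.24), CTSA (lysosomal cathepsin A, by 1.77 ± 0.06) and EFCAB2 (by 2.30 ± 0.23) also fell, with adjusted p of at most 5.1e-06 from the same edgeR fit. Host exon counts differed by -1.86 for QPCTL and -1.71 for CTSA. For HELLS, MBNL1 and EFCAB2 they differed by 0.34, 0.47 and 0.50. The member chr22:18882809-18884873 (ratio 0.0734) was too low for the test, with 0.713 to 2.38 CPM in total RNA and 0.115 to 0.784 CPM in the cytosol of these groups.

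Along the run on chromosome 1, windows with and without exonic bases could be set side by side within 1 gene. In CAP1, which encodes a regulator of actin turnover, all 4 windows were free of exons and fell by 1.26 to 1.83 on the log2 scale, while the gene's exon counts changed by 0.27. In PPT1, the window without exonic bases at chr1:40552947-40554983 fell by 1.5 ± 0.22, more than the window with exonic bases given above. In ZMPSTE24, which encodes the protease that matures lamin A, the only window without exonic bases fell by 1.18 over the 3 groups, and the 3 with exonic bases differed by -0.90 to -0.60 and were not called. Within CTRL, however, all 4 were called, the 3 with exonic bases at -1.13, -1.63 and -1.66 and the other at -1.15, so the contrast between them rests on the ADAR-targeted groups, where the 3 lay between -0.63 and -0.08. In RLF, 4 of 5 windows fell, by 1.26 to 1.90, and the gene changed by 0.02.

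In other hosts with 4 or more members, windows with exonic bases fell too. All 4 windows of GABPB1-AS1 (4 with exonic bases), of RAB30-DT (3) and of ENSG00000277693 (3) fell, and 6 of 7 tested in SPG7 (5 of its 8 with exonic bases), whose own exon counts fell by 1.51. In DLEU2 and ST3GAL3, whose windows held none, 3 of 5 and 2 of 4 fell, and in DOCK8 (1 of 4 with exonic bases) 2 of 4. The genes whose ECRs served as examples in the study, BRD8, MIGA1, PSPH and MYB, and the described inverted Alu ligands BPNT1, DESI1 and NICN1, hosted no member. Their ratios ran from 0.538 for BRD8 to 2.25 for 1 of the PSPH windows.

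Whether targeting hnRNPC moved the members in total RNA was asked next. Members had to reach a nuclear minimum in hnRNPC-targeted cells, so their choice can favour ECRs that rise with this targeting. The counts of rises in both studies, also those of ADAR+hnRNPC over ADAR, are not corrected for that. In the second study 10 of 589 tested members rose and 4 fell against CTRL, where 1.35% of all ECRs rose and 0.655% fell, and the members' median was -0.09 against -0.02. Without hnRNPC total replicate 1 the number that rose was 2, and without CTRL total replicate 2 it was 15. The 8 with the largest rise whose groups did not overlap were 4 windows in or next to MARS1, OSTC, ZNF440 and GPAA1, 3 neighbouring windows without a host gene on chromosome 18, and 1 in LINC00899. HNRNPC itself was at 851 and 627 CPM in CTRL and at 452 and 471 CPM in hnRNPC total RNA.

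MARS1 encodes the methionyl-tRNA synthetase of the cytosol. Its intronic window chr12:57886808-57888929 gave 0.528 and 1.01 CPM in CTRL and 3.37 and 2.46 CPM in hnRNPC total RNA, and 1.51 and 0.597 CPM in ADAR against 6.47 and 6.22 CPM in ADAR+hnRNPC. Both comparisons separated the groups, with rises of 1.94 ± 0.38 (adjusted p = 0.0056) and 2.39 ± 0.37 (adjusted p = 0.00091) on the log2 scale by edgeR. The cytosol also held more in ADAR+hnRNPC (3.87 and 3.20 CPM) than in ADAR (0.436 and 0.902 CPM), a rise of 2.35. Against total RNA its cytosolic level differed by only -0.15 ± 0.22 over the 3 groups, which did not pass. Within CTRL the difference was 0.87, with 1.13 and 1.43 CPM in the cytosol, both above the total values. It was -0.64 within ADAR and -0.68 within ADAR+hnRNPC, and none of the 3 was called.

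In the first study the same window gave 0.426, 0.316 and 0.382 CPM in CTRL on day 4 and 4.74, 2.48 and 2.95 CPM in hnRNPC, again without overlap, with a log2 fold change of 3.12, after 2.05 on day 3 and before 2.60 on day 5. OSTC, which encodes a subunit of the oligosaccharyltransferase, held the window chr4:109579260-109585549 with 2.16 and 3.35 CPM in CTRL and 6.71 and 6.17 CPM in hnRNPC, a rise of 1.24 ± 0.24 (adjusted p = 0.0048). On day 4 of the first study it gave 4.55, 3.49 and 3.68 CPM against 26.4, 13.9 and 17 CPM. These 2 calls held without any single library, whereas the other 6 of the 8 were lost without at least 1 library.

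The ZNF440 window chr19:11936606-11938662 gave 2.03 and 2.42 CPM in CTRL and 5.61 and 4.62 CPM in hnRNPC (1.2 ± 0.28, adjusted p = 0.016, but 0.088 without hnRNPC replicate 1). The chromosome 18 windows rose by 1.11 to 1.14. The longest of them, chr18:18513289-18518248, gave 15 and 19.3 CPM in CTRL against 42.5 and 31.6 CPM in hnRNPC. Editing in the chromosome 18 windows was not called lower with ADAR targeted, unlike in 76% of all ECRs tested. Their log2 changes in odds were 0.31, -0.08 and -0.19, and the reason was not tested. GPAA1 (0.895 and 1.95 against 3.73 and 2.96 CPM) and LINC00899 (9.07 and 8.84 against 22.2 and 16.0 CPM) completed the 8. All 8 were also higher in hnRNPC than in CTRL on day 4 of the first study, by 1.13 to 3.12 on the log2 scale, in another clone with other guides.

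In the first study 665 members were tested. On day 3, 46 of them rose and 2 fell, against 4.79% and 0.435% of all ECRs. On day 4 it was 52 and 5, against 5.62% and 1.27%, and on day 5 it was 46 and 16, against 4.98% and 4.31%. The members' medians were 0.20, 0.17 and -0.00, against 0.10, 0.10 and -0.08. Leaving out 1 library gave 33 to 58, 32 to 68 and 39 to 53 rising members on the 3 days, and without hnRNPC day 4 replicate 1 the 52 became 32. Among members chosen after values were seen, the windows with the largest rise on day 4 after MARS1 lay in RCN3 (2.97 ± 0.33), GPAA1 and CASP8AP2 (2.65 ± 0.27), and the deepest fall lay in POLE2 (by 3.68 ± 0.69).

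ADAR+hnRNPC was set against ADAR to ask the same in cells with less ADAR. In total RNA 84 of 589 members rose and 1, in the 3′ UTR of TRPM7, fell, where 6.96% of all ECRs rose and 0.205% fell, with a median of 0.36 against 0.05. The rise lay mostly in windows without exonic bases, 64 of 293 (median 0.58), against 20 of 296 with exonic bases (median 0.04), and 49 of 381 other ECRs without exonic bases (median 0.34). Without scaling factors 119 rose and the median of all ECRs was 0.24. The number was 24 without ADAR+hnRNPC replicate 2 and 27 without ADAR replicate 2. MALAT1 moved alongside, at 926 and 802 CPM in ADAR and 2050.3 and 2662 CPM in ADAR+hnRNPC total RNA, and its part in the count was not tested.

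In the cytosol the same comparison gave 10 members higher and 2 lower, against 1.64% and 0.123%, with a median of -0.02. Leaving out any 1 of the 4 libraries gave 1 to 6, and it was 1 without ADAR cytosol replicate 1. Besides MARS1, the largest rises were in CASP8AP2 (1.77 ± 0.37), ZNF440 (1.65 ± 0.35) and NUCKS1 (1.54 ± 0.19). ZNF440 went from 0.361 and 0.492 CPM to 1.12 and 1.66 CPM. Whether hnRNPC targeting changed cytosolic relative to total level was tested directly, as the difference between ADAR+hnRNPC and ADAR, and no member was called in either direction by edgeR, with 156 of 589 at an unadjusted p under 0.05. Of all 2441 ECRs tested, 0 were called as well. The members' median difference was -0.28, with 173 of 589 above 0, against a median of -0.03 for all ECRs. DESeq2 called 1 higher and 9 lower and limma-voom 0.

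RAB30-DT and RLF carried several of these rises. The 4 windows of RAB30-DT, a divergent lncRNA of RAB30, rose by 1.18 to 1.31. The largest by length, chr11:82784631-82788700, went from 3.73 and 3.23 CPM in ADAR to 7.69 and 11.9 CPM in ADAR+hnRNPC, with 6.47 and 10.3 CPM in CTRL. In RLF 3 of 5 rose, among them chr1:40634125-40636233, from 2.39 and 1.59 CPM to 4.91 and 5.76 CPM. In CTRL this window gave 4.12 and 6.59 CPM, and against CTRL it fell in ADAR by 1.37 ± 0.26 (adjusted p = 0.0073).

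Falls in ADAR were examined in the same way. Against CTRL, 64 members fell and 3 rose in ADAR total RNA, where 4.01% of all ECRs fell and 0.615% rose, with a median of -0.46 against -0.10, and 48 of the 64 were among the 293 tested without exonic bases. This comparison shares its ADAR libraries with the one above. The count rests on single libraries: it was 1 without CTRL replicate 2, which stood apart, 0 without ADAR replicate 2 and 138 without CTRL replicate 1. MALAT1 stood at 1074 and 2941 CPM in CTRL and at 926 and 802 CPM in ADAR, and its part in the count was not tested. The 3 that rose were SLC3A2 (1.30 ± 0.11), HELZ2 (1.32 ± 0.32) and ENSG00000269179 (1.16 ± 0.22).

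Depletion was weaker in ADAR than in CTRL at 20 members, the only ECRs for which the difference between the 2 groups passed an adjusted p of 0.05 (0.819% of 2441; edgeR, a comparison chosen after seeing the data). All 20 held exonic bases, and their hosts' own exon counts were lower in the cytosol by 0.63 to 1.96 on the log2 scale. They lay in 16 genes, namely SCPEP1, GUSB, CTSA, SLC3A2, SLC1A5, SPTLC1, ZMPSTE24, NUCB2, TAPBP, CANX, CFD, GANAB, P4HB, SNX14, CD164 and SERPINH1. Among these, TAPBP encodes the peptide-loading chaperone tapasin, GANAB the alpha subunit of glucosidase II, SERPINH1 a collagen chaperone and SLC1A5 a glutamine transporter. The differences ran from 0.62 to 1.52.

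GUSB encodes lysosomal beta-glucuronidase. Its window chr7:65437411-65439498 gave 2.56 and 2.87 CPM in the CTRL cytosol, 7.53 and 7.12 CPM in the ADAR cytosol and 8.91 and 8.32 CPM in the ADAR+hnRNPC cytosol, while total RNA held 16.3 and 17.2, 15.7 and 16.2, and 14.8 and 14.4 CPM. The cytosolic values separated CTRL from both others and the total values of CTRL and ADAR lay close, with a difference of 1.44 ± 0.16 (adjusted p = 0.00043). SCPEP1, a lysosomal carboxypeptidase gene, went from 1.93 and 1.53 CPM to 6.16 and 5.18 CPM in the cytosol (1.52 ± 0.27, adjusted p = 0.012), and CTSA from 3.17 and 3.53 CPM to 7.73 and 8.48 CPM (1.19 ± 0.15).

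SLC3A2, the heavy chain of amino acid transporters, had the largest rise in total RNA of the 20, from 32.6 and 35.5 CPM to 82.4 and 81.0 CPM, with 7.89 and 9.37 against 53.9 and 52.6 CPM in the cytosol. The endoplasmic reticulum list moved in the same libraries, from 1356 to 1428 CPM in the CTRL cytosol to 2550 to 2575 CPM in the ADAR cytosol and 2248 to 2362 CPM in ADAR+hnRNPC. Its part in the 20 members was not tested. Leaving out 1 library gave 5 (without ADAR total replicate 1) to 44 (without CTRL total replicate 2). The others that moved the count by over 1.5 times were CTRL total replicate 1 (40), CTRL cytosol replicate 2 (11), ADAR total replicate 2 (10) and the ADAR cytosol replicates (7 and 8).

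In the cytosol itself, 22 members rose and 8 fell in ADAR against CTRL, where 1.93% of all ECRs rose and 0.451% fell (also chosen after seeing the data). On day 4 of the first study IFN-α raised 5 members and lowered 1 (0.752% and 0.119% of all ECRs), in NRIR (4.36 ± 0.31), HELZ2 (2.48 ± 0.25), STAT2 (1.55 ± 0.40), APOL1 (1.45 ± 0.09) and TOR1B (1.35 ± 0.10), and in POLE2 (-3.74 ± 0.69). The fall in POLE2 shares its CTRL libraries with the day 4 comparison of hnRNPC. NRIR, STAT2, HELZ2 and APOL1 are known interferon-responsive genes, and all but NRIR and POLE2 held exonic bases in the window.

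Editing of the members was measured as edited reads over all reads at their sites, summed per ECR, with the sites chosen in the first study for the second and the other way round. In 390 members with at least 20 reads in every library, the median edited share was 18.9% and 16.1% in CTRL total RNA, 20% and 19.5% in hnRNPC, 7.74% and 7.39% in ADAR and 7.95% and 7.28% in ADAR+hnRNPC. Both ADAR-targeted groups lay far below the others. The other ECRs had medians of 20.3% and 18.3% in CTRL and 7.27% and 6.70% in ADAR total RNA.

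With ADAR targeted, 275 of the 390 members were edited less than in CTRL and 0 more (edgeR quasi-likelihood on edited and unedited reads, adjusted p no higher than 0.05), against 76% and 0.0521% of all 1919 ECRs tested, with a median log2 change in odds of -1.37 against -1.58. The share among members was thus not above that of all ECRs, and 250 members fell without CTRL total replicate 2. In PRKCSH, the beta subunit of glucosidase II, editing fell from 33.4% and 30.4% of 2623 and 2426 reads to 8.73% and 7.75% of 1878 and 1884 reads (log2 odds -2.38, adjusted p = 4.4e-11). In PIEZO1, a mechanosensitive channel gene, it fell from 25.3% and 23.5% to 3.58% and 3.66% (-3.10 ± 0.30).

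Among the 390 members tested, the 8 with the largest fall in the edited share further comprised a window at GOLGA8M (35.2% and 33.7% to 7.81% and 8.74%), which belongs to a family of near-identical genes so that the origin of its reads is uncertain, SOAT1 (25.3% and 30.5% to 6.53% and 4.39%), ZNF587 (26.6% and 28% to 6.59% and 4.26%), IDUA (34.4% and 23.9% to 11.2% and 5.43%), GATD1-DT (31.5% and 35.6% to 13.3% and 13.0%) and ARSD (34.0% and 32.2% to 12.4% and 13.1%). In none of the 8 did CTRL and ADAR overlap. The chr8:43091768-43098489 window, by contrast, was edited at 10.6% and 7.83% in CTRL and 10.5% and 14.3% in ADAR, a difference that did not pass (adjusted p = 0.067).

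Edited shares of the members were higher in the cytosol than in total RNA. In CTRL the median share of the members was 25.3% and 24.1% in the cytosol against 18.9% and 16.1% in total RNA, without overlap, and in ADAR it was 10.1% and 8.60% against 7.74% and 7.39%. In the model over CTRL, ADAR and ADAR+hnRNPC, 109 of 390 members were edited more in the cytosol and 4 less, against 15.7% and 0.677% of all ECRs, with a median log2 change in odds of 0.47 against 0.23. Windows without exonic bases gave 67 of 203 and those with exonic bases 42 of 187. All 4 that were edited less lay in 3′ UTRs (SPN, QPRT, F11R and TXNDC15), where 2 of 36 were edited more, while 100 of 289 intronic members and 157 of 690 other intronic ECRs were edited more. Without ADAR cytosol replicate 1 the 109 became 71, and without CTRL total replicate 2 it became 75.

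The PPT1 window chr1:40539086-40541921, whose sites are intronic, was edited at 23.5% of 332 and 22.2% of 252 reads in CTRL total RNA and at 48.3% of 120 and 37.9% of 169 reads in the CTRL cytosol (log2 odds 1.15, adjusted p = 0.0011). The 3′ UTR of SPN went the other way, with 18.8% of 5969 and 19.3% of 4516 reads in total RNA and 15.2% of 851 and 18.5% of 1328 reads in the cytosol (-0.66 ± 0.14, adjusted p = 0.0015). Within the libraries of the rule, given as a description, 435 of 514 members had a higher edited share in the cytosolic than in the nuclear fraction. Their medians were 26.3% and 18.5%, with a median difference of 7.32 percentage points. The other ECRs shifted the same way, with medians of 24.20% and 24.29% in the cytosolic and 18.04% and 20.05% in the nuclear libraries. How many of them rose was not counted, so whether members differ in this from other ECRs was not tested.

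Targeting hnRNPC left no member called in either direction for editing in total RNA of the second study, by edgeR or by limma, with 33 of 390 at an unadjusted p under 0.05 by edgeR. Of all 1919 ECRs tested, 0 were called by edgeR as well, and their unadjusted p-values were not counted. The members' median log2 change in odds was 0.19, with 280 of 390 above 0, against 0.15 for all ECRs. On day 4 of the first study their median shares were 12.9%, 14.3% and 15.4% in hnRNPC and 11.2%, 11.4% and 12.4% in CTRL. The other ECRs had 12.7%, 13.9% and 14.8% against 11.8%, 12.2% and 12.5%. This day 4 difference was not tested. In the first study, editing of 343 of 472 members fell and of 0 rose in ADAR on day 5 (80.9% and 0% of all 1967 ECRs), with medians of 11%, 11.8% and 11.7% in CTRL and 4.66%, 5.08% and 5.00% in ADAR. IFN-α raised editing of 105 members and lowered that of 3 (42.8% and 0.203% of all), from medians of 11.2%, 11.4% and 12.4% to 14.3%, 16.1% and 17.3%. The members' median change in odds, 0.45, was below that of all ECRs, 0.66. The largest rises, chosen after values were seen, were in the 3′ UTRs of CTSS (2.95 ± 0.18), which encodes cathepsin S, and MESD (2.91 ± 0.58).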

How the data were processed

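The deposited tables hold read counts per ECR and per gene for every library, and edited and total read counts per site. According to the study's methods, the authors prepared stranded total RNA libraries after rRNA depletion and aligned reads to GRCh37 with STAR 2.5.4a. They kept uniquely mapped reads, called editing with SAILOR, built regions with bedtools and counted reads with featureCounts on GENCODE v19. Versions of bedtools and featureCounts are not given in the sources used here. Unique mapping thins counts in near-identical copies. No deposited column was without a sample.

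Counts of the 66 libraries were divided by each library's gene total to give CPM. Groups follow the sample labels. The paper describes the data of both studies as coming from independent experiments, while the labels tie no replicate number to an experiment. P-values measure only the spread between these samples. Fits used edgeR 4.0.16 (R 4.3.3; TMM scaling, quasi-likelihood test, Benjamini-Hochberg adjustment over all ECRs or genes), over 14 of 18 libraries of the second study (the 4 that chose the members left out; the hnRNPC total libraries kept) and 48 of the first. Features needed an average log2 CPM of 4.5 on ECR totals (ECRs) or 0.5 (genes). For a call the absolute log2 fold change had to reach 1 with adjusted p no higher than 0.05; editing and differences between groups needed the latter only. Editing was tested on edited and unedited reads in ECRs with at least 20 reads in every library.

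Of 475962 and 318767 listed sites (first and second study), 101389 and 91303 with at least 100 pooled reads and 5 to 95% edited were kept, each set applied to the other study; 99.8% of sites in ECRs were adenosine on their strand. Places and hosts came from GENCODE v44 lifted to GRCh37, which differs from the authors' version. Inverted repeats came from blastn 2.17.0 (word size 11), as the best-scoring match within each window, with at least 200 bases for the counts given. Values after ± are standard errors of the fit. The fits were tested on simulated data. Counting error limits low levels, and the members' median was 6.15 CPM in the nuclear and 1.89 CPM in the cytosolic fraction of hnRNPC-targeted cells.

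Members and lists were chosen with earlier results of these data known. Named members were, by a set rule, the 8 highest in nuclear CPM, the 8 lowest ratios at 5 CPM or more, the 8 largest hnRNPC rises without overlap of the groups and the 8 largest falls in edited share with ADAR targeted, the members beside each limit, all members of hosts with at least 4, and the study's own example genes; any other member named was chosen after its values were seen. Alternatives were no scaling factors, DESeq2 1.42.0, limma-voom (limma 3.58.1), no filter, all 18 libraries, other site filters, a replicate block and each library left out. Python 3.11.15 with pandas 2.3.3, numpy 2.4.6, pysam 0.24.0, samtools 1.23.1 and matplotlib 3.10.9 was used for the rest. Sequences of the regions are not reported here.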

Additional observations from a re-analysis of the deposited data

Results flagged for a closer look

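The difference between ADAR and CTRL in cytosolic relative to total level was tested directly, and it passed for 20 members, all with exonic bases and all less depleted in ADAR. With 1 library left out the number ran from 5 to 44. The comparison was chosen after seeing the data, and the endoplasmic reticulum transcripts that moved in the same libraries are given beside it above.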

How the results depend on the processing

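The number of members fell from 729 to 174 with a ratio of at most 0.25, and was 663 to 819 from 1 replicate alone. With 1 library left out, members lower in the cytosol than in total RNA numbered 305 to 363 (335 with all), their host genes 81 to 88 (85), ADAR minus CTRL 5 to 44 (20), hnRNPC rises in the second study 2 to 15 (10) and in host genes 2 to 3 (3), ADAR+hnRNPC rises over ADAR 24 to 105 in total RNA (84) and 1 to 6 in the cytosol (10), and falls in ADAR total RNA 0 to 138 (64). ADAR rises in the cytosol numbered 18 to 22 (22), day 3, 4 and 5 rises 33 to 58, 32 to 68 and 39 to 53, and IFN-α rises 5 to 6. Editing gave 201 to 250 falls with ADAR (275), 71 to 113 rises in the cytosol (109), 304 to 322 falls on day 5 (343) and 80 to 121 rises with IFN-α (105). With the study's own site filter these were 145, 33, 170 and 60, and with all listed sites 535 and 172 in the first study; site filters were chosen after seeing the data.

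hnRNPC rises were 15 without the filter on low counts and 15 with all 18 libraries. Without scaling factors ADAR minus CTRL gave 31, DESeq2 gave 32 and all 18 libraries 8; limma-voom gave 6 cytosolic ADAR+hnRNPC rises, and DESeq2 1 rise in the difference between ADAR+hnRNPC and ADAR. Without scaling factors the median of all ECRs shifted by 0.19 in ADAR+hnRNPC against ADAR and by -0.10 in cytosol against total RNA. Uncalled log2 values of cytosol over total RNA near 0 changed sign. With 1 library left out, MARS1 ran from -0.3523 to 0.1299 (above 0 without CTRL total 2 or ADAR total 1), OAS3 from -0.01502 to 0.2257, ILF2 from -0.02549 to 0.08709, U2AF1 from -0.03631 to 0.1079 and ADARB1 from -0.02096 to 0.1431. Without scaling factors ILF2 was at -0.0779, U2AF1 at -0.08009 and ADARB1 at -0.05679. The cause was not tested. The 74 named members' cytosolic results kept side and direction in 1286 of 1331 alternatives.

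Same-numbered samples deviated together in part: their correlation was over 0.1 in 32 of 42 pairs of groups in the second study (-0.14 to 0.44) and in 220 of 360 in the first (-0.36 to 0.75). As not every pair did, and the labels tie no number to a day or batch, the numbers were not taken to pair the samples. With a replicate block, members lower in the cytosol numbered 335, ADAR+hnRNPC rises 83, ADAR falls 58, ADAR minus CTRL 21, hnRNPC rises 11, host genes 86 and editing falls 279.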
